A study of Homo sapiens with 8 samples.

Results

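Keratins are the intermediate filament proteins of epithelial cells, and 8 of them were followed here across 2 human breast cancer cell lines: KRT7, KRT8, KRT18 and KRT19, which mark the luminal cells of the breast, and KRT5, KRT14, KRT15 and KRT17, which mark its basal cells. Members were the array probe sets annotated with exactly 1 gene symbol from this list. That rule found 7 probe sets of 8746, 1 for each gene except KRT17, for which no probe set carried the symbol alone. The 4 luminal keratins and KRT15 passed the filter on low signals, so 5 of the 7 were tested.

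The study put a plasmid carrying HSD17B14, a 17-beta-hydroxysteroid dehydrogenase, into ZR75-1 cells, an estrogen receptor-positive line per the labels, and into SKBR3 cells, an estrogen receptor-negative line per the labels. It had 4 groups of 2 arrays each: ZR75-1 with HSD17B14, ZR75-1 with the vector lacking the insert, SKBR3 with HSD17B14 and SKBR3 with the same empty vector. All groups shared phenol-red free Optimem-I with 4% fetal bovine serum, the FuGene-6 reagent, transfection 24 h after seeding and harvest 48 h after transfection. Each line is a single established line, every control cell also received a plasmid, and the labels do not say whether duplicates were separate cultures, so a p-value here reflects array-to-array spread alone, which may be technical.

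Keratins work in pairs: a type II keratin (KRT5, KRT7 or KRT8 here) assembles with a type I keratin (KRT14, KRT15, KRT17, KRT18 or KRT19) into a filament that is anchored at desmosomes between cells and at hemidesmosomes on the basement membrane. KRT8 and KRT18 are the primary pair of simple epithelia, to which luminal breast cells add KRT7 and KRT19. KRT5 and KRT14 are the pair of basal and myoepithelial cells, and these classes are used to describe breast tumours as luminal or basal. In the RefSeq annotation the type II genes named here and KRT18 lie on chromosome 12, where KRT8 and KRT18 neighbour each other, and the other type I genes lie on chromosome 17.

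The 250 bases before an annotated start are shown for KRT8, the luminal member with the largest difference between the lines, and for KRT5, a basal member that stayed under the signal floor on all 8 arrays. Both are from RefSeq on GRCh38.p14, and both are read 5′ to 3′ on the minus strand. The KRT8 window, at chr12:52926470-52926719, starts from a point inside the annotated span of the gene (52897191 to 52949860). It is thus not the sequence before the outer start of that span. The KRT5 window is chr12:52520395-52520644. Capitals mark matches to the motifs searched.
KRT8: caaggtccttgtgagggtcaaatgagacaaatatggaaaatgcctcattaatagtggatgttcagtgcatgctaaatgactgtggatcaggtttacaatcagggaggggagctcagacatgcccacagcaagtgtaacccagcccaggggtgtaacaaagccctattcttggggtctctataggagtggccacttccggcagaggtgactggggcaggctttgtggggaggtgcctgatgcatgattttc
KRT5: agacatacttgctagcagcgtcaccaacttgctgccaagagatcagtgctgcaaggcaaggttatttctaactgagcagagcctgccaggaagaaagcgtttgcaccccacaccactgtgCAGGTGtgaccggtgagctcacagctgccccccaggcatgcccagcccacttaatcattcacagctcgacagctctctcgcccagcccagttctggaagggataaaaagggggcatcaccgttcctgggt
The motifs were searched on both strands, and among 35116 windows of the same length TATAAA occurred in 10.72%, GGGCGG in 42.64%, GCCNNNGGC in 19.79%, CAGGTG in 17.49% and AGGTCA in 12.08%. The KRT8 window, 50.4% G and C, held no match, and sequence elsewhere in the gene or before its outer start was not searched. The KRT5 window, 56% G and C, held 1 match, CAGGTG, which begins 130 bases before the start.

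Array signals were MAS5 values on a linear scale, and each array's mean, with 2% of probe sets trimmed from either end, was 100.1. Signals are compared within a probe set, between arrays, since probe sets differ in how brightly they bind. The probe sets of KRT8 and KRT18 are of a class that can also bind related transcripts, and that of KRT7 of a class that can be shared by related transcripts. Each array has its own 40th percentile of signal, and the largest of these 8, 17.6, served as a common floor.

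The labels were first set against marker genes. HSD17B14 signals were 107.5 and 135.3 in ZR75-1 cells given its plasmid, against 17.8 and 2.1 with empty vector, and 650.7 and 743.6 in the SKBR3 cells given it, against 2.0 and 4.2 with empty vector. ESR1, the estrogen receptor, gave 194.5 to 341.6 on ZR75-1 arrays and 14.9 to 24.6 on SKBR3 arrays. ERBB2, which is known to be amplified in SKBR3, was higher on ZR75-1 arrays (log2 difference 1.99 ± 0.22, SE, limma adjusted p = 1.32e-05), with signals of 95.9 to 226 against 25.9 to 46.8. Since this goes against the label, those arrays are called SKBR3-labelled from here on, and every direction between the lines rests on the label.

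**Figure D1:**
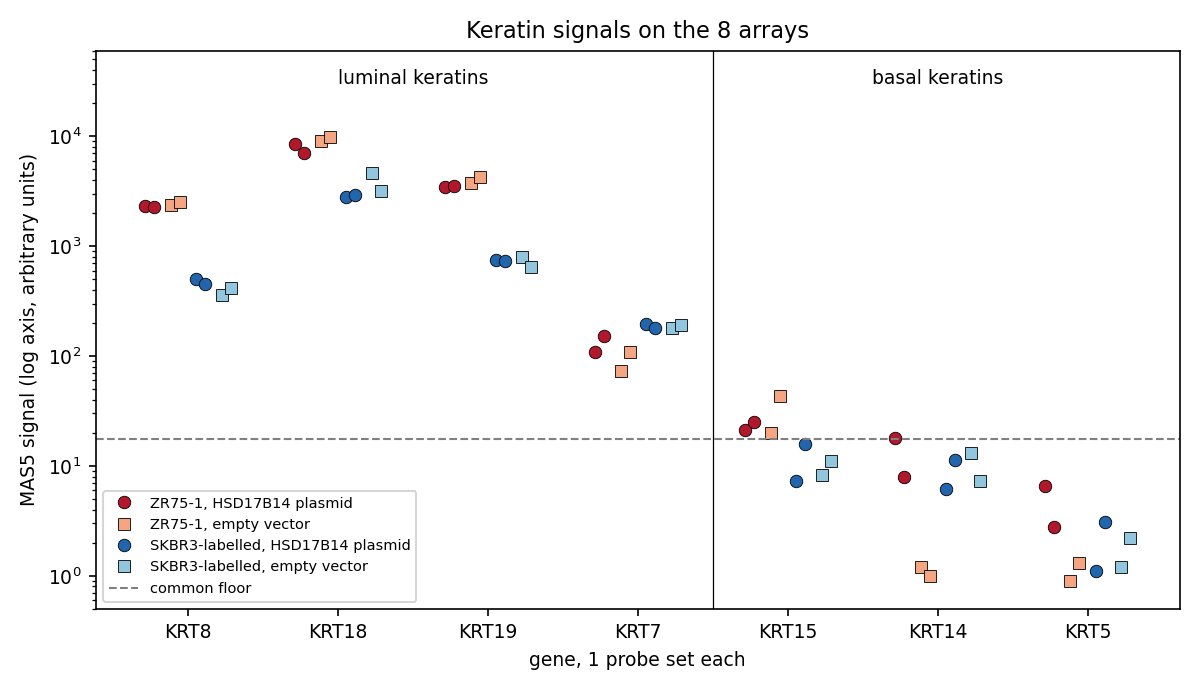
Signal of each keratin probe set (horizontal axis, 1 per gene) on every array (vertical axis, MAS5 signal, log scale, arbitrary units); each point is 1 array, circles are HSD17B14 plasmid, squares are empty vector, and the dashed line is the common floor of 17.6. KRT8, KRT18 and KRT19 lie higher on all 4 ZR75-1 arrays, KRT7 lies lower on them, and the basal keratins lie near or under the floor.

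The first comparison was between the lines, averaged over both plasmids. KRT8, KRT19 and KRT18 were higher in ZR75-1, by 5.48-fold, 5.13-fold and 2.60-fold. KRT7 was 1.75-fold lower in ZR75-1. KRT15, a basal keratin that pairs with KRT5 in stratified epithelia, was at least 1.47-fold higher in ZR75-1, and KRT5 and KRT14 stayed at or near the floor in both lines. All 4 luminal keratins were called, 3 higher and 1 lower, on a background of 49.2% of the 6251 probe sets tested (23% higher and 26.1% lower). For each of them, the 4 arrays of one line did not overlap the 4 of the other, as was so for 42.5% of probe sets tested. KRT15 passed the filter through its ZR75-1 arrays, so its values are given as a description. A call means an adjusted p under 0.05 from limma after Benjamini-Hochberg adjustment over all 6251 probe sets.

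KRT8, the type II member of the simple epithelial pair, gave signals of 2306.5 and 2252.4 in ZR75-1 with HSD17B14 and 2351.9 and 2529.6 with vector, against 499.6 and 454.4 in SKBR3-labelled cells with HSD17B14 and 360.3 and 420.2 with vector. Every ZR75-1 array was above every SKBR3-labelled array, by a wide margin against the spread within a line. The mean signal was 2360.1 ± 120.1 in ZR75-1 and 433.6 ± 58.7 in SKBR3-labelled cells (SD, n = 4 each), a log2 difference of 2.45 ± 0.10 (SE, limma adjusted p = 4.01e-09).

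KRT19, a type I keratin that can stand in for KRT18 beside KRT8, gave signals of 3433.4 and 3531.3 in ZR75-1 with HSD17B14 and 3721.7 and 4300.7 with vector, against 746.8 and 725.3 in SKBR3-labelled cells with HSD17B14 and 793.6 and 652.4 with vector. Again no array of one line came near the other line. The mean was 3747 ± 388 in ZR75-1 and 729.5 ± 58.8 in SKBR3-labelled cells (SD, n = 4 each), a log2 difference of 2.36 ± 0.11 (SE, limma adjusted p = 9.97e-09).

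KRT18, the type I partner of KRT8, gave signals of 8578.7 and 7006.5 in ZR75-1 with HSD17B14 and 9014.7 and 9893.8 with vector, against 2786.8 and 2896.2 in SKBR3-labelled cells with HSD17B14 and 4602.3 and 3154.2 with vector. The lines did not overlap, but the first SKBR3-labelled vector array stood well above the other 3 of its line. The mean was 8623 ± 1209 in ZR75-1 and 3359.9 ± 842 in SKBR3-labelled cells (SD, n = 4 each), a log2 difference of 1.38 ± 0.14 (SE, limma adjusted p = 8.66e-06).

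KRT7, a type II keratin of simple and ductal epithelia, gave signals of 108.7 and 152.3 in ZR75-1 with HSD17B14 and 72.9 and 108.2 with vector, against 195.3 and 180.5 in SKBR3-labelled cells with HSD17B14 and 180 and 193.4 with vector. It was the only luminal keratin with the lower signals in ZR75-1, and its SKBR3-labelled arrays lay close together. The mean was 111 ± 32.5 in ZR75-1 and 187 ± 8.18 in SKBR3-labelled cells (SD, n = 4 each), a log2 difference of -0.81 ± 0.16 (SE, limma adjusted p = 0.00146). The difference was -1.07 (adjusted p = 0.00474) between the vector arrays alone and -0.55 (adjusted p = 0.0514) between the HSD17B14 arrays alone, where the call was lost.

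Among the basal keratins, KRT15 gave signals of 21 and 25 in ZR75-1 with HSD17B14 and 19.8 and 43.4 with vector, against 7.3 and 15.8 in SKBR3-labelled cells with HSD17B14 and 8.3 and 11 with vector. All ZR75-1 arrays were above the common floor and all SKBR3-labelled arrays under it. The ZR75-1 mean was at least 1.47-fold above that floor. The fitted log2 difference was 1.36 ± 0.48 (SE), with n = 4 arrays a line, and it rests on the values under the floor. With these raised to the floor, the difference was 0.56. Since KRT15 passed the filter through its ZR75-1 arrays, its p-value is not read as a test and it is not counted as a call. Leaving out 1 array, the log2 difference ran from 1.07 to 1.64.

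KRT14, the type I partner of KRT5, gave signals of 18.1 and 7.9 in ZR75-1 with HSD17B14 and 1.2 and 1.0 with vector, against 6.2 and 11.3 in SKBR3-labelled cells with HSD17B14 and 13.2 and 7.3 with vector. A single array, ZR75-1 with HSD17B14, exceeded the floor. KRT5 gave signals of 6.6 and 2.8 in ZR75-1 with HSD17B14 and 0.9 and 1.3 with vector, against 1.1 and 3.1 in SKBR3-labelled cells with HSD17B14 and 1.2 and 2.2 with vector. No KRT5 value reached the floor, so no fold is given. In a fit with no filter the line differences had adjusted p of 0.729 for KRT5 and 0.202 for KRT14. Over the 3 basal probe sets the summed signal was 21.9 to 45.7 on ZR75-1 arrays and 14.6 to 30.2 on SKBR3-labelled arrays, and over the 4 luminal probe sets 12942.5 to 16832.3 and 4228.5 to 5936.2. Such sums are read between arrays and not between lists, since probe sets differ in brightness. KRT18 made up most of the luminal sum.

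By group, KRT8 averaged 2279 ± 38.3 in ZR75-1 with HSD17B14 and 2441 ± 126 with vector, against 477 ± 31.96 in SKBR3-labelled cells with HSD17B14 and 390 ± 42.4 with vector (SD, n = 2 each). KRT18 averaged 7793 ± 1112 in ZR75-1 with HSD17B14 and 9454 ± 622 with vector, against 2842 ± 77.4 in SKBR3-labelled cells with HSD17B14 and 3878 ± 1024 with vector. For KRT19 the group means were 3482 ± 69.2 with HSD17B14 and 4011 ± 409 with vector in ZR75-1, and 736 ± 15.2 with HSD17B14 and 723 ± 99.8 with vector in SKBR3-labelled cells. All 3 thus had ZR75-1 with vector highest and ZR75-1 with HSD17B14 next, followed by SKBR3-labelled cells with HSD17B14 for KRT8 and KRT19 and with vector for KRT18. KRT7 averaged 131 ± 30.8 with HSD17B14 and 90.6 ± 24.96 with vector in ZR75-1, and 188 ± 10.5 with HSD17B14 and 187 ± 9.48 with vector in SKBR3-labelled cells, so ZR75-1 with vector was lowest. In each order the neighbours within a line did not pass the test of the plasmid's effect, given further on.

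The keratin genes were not all shifted by the same factor, which ratios taken within an array describe. The ratios and their permutation tests were added after the signals above were seen, so they restate these signals and give no independent support. The size of such a ratio has no meaning between probe sets, so only its change between arrays is read. The KRT8 to KRT18 ratio was 0.269 and 0.321 in ZR75-1 with HSD17B14 and 0.261 and 0.256 with vector, against 0.179 and 0.157 in SKBR3-labelled cells with HSD17B14 and 0.0783 and 0.133 with vector. It was 2.11-fold higher in ZR75-1 (log2 difference 1.07, higher on 4 of 4 arrays).

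The KRT19 to KRT18 ratio was 0.400 and 0.504 in ZR75-1 with HSD17B14 and 0.413 and 0.435 with vector, against 0.268 and 0.250 in SKBR3-labelled cells with HSD17B14 and 0.172 and 0.207 with vector. It was 1.97-fold higher in ZR75-1 (log2 difference 0.98). The KRT7 to KRT18 ratio was 4.55-fold lower in ZR75-1 (log2 difference -2.19), at 0.00809 to 0.0217 against 0.0391 to 0.0701. Each of these 3 line differences had an exact two-sided permutation p of 0.0286 (n = 4 arrays a line). It stayed 0.0286 after adjustment over the 3 ratios and is the smallest that 70 arrangements can give. As the signals had already been seen, these p-values add no independent support. Without the first SKBR3-labelled vector array, whose KRT8 to KRT18 ratio was the lowest, that line difference was 0.88.

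**Figure D2:**
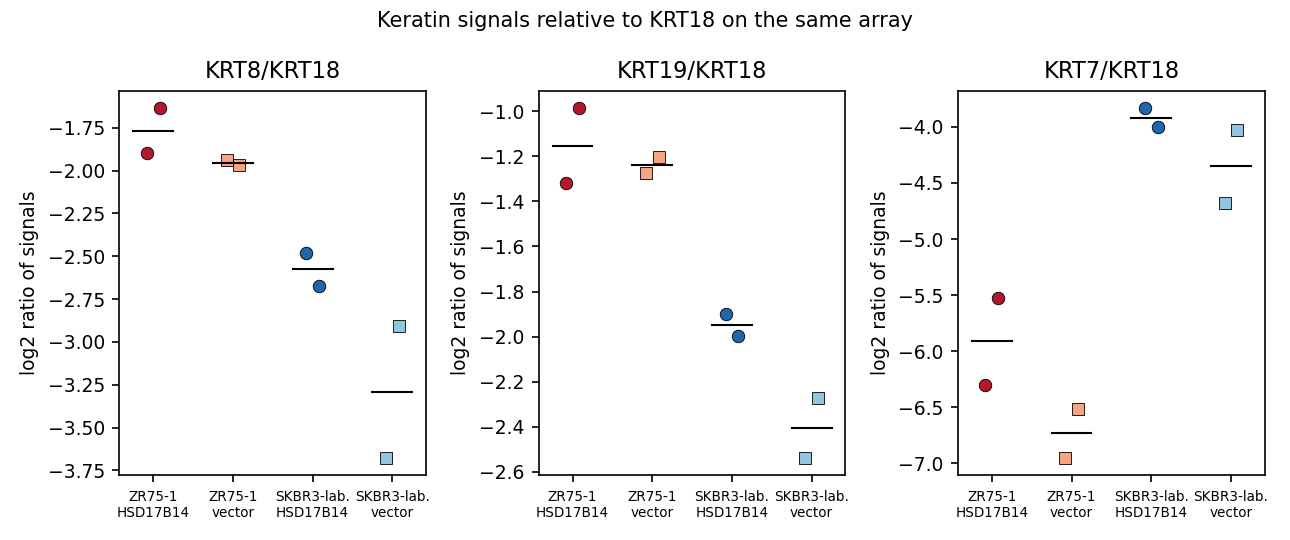
Log2 ratio of the KRT8, KRT19 and KRT7 signal to the KRT18 signal of the same array (vertical axis of each panel, scales differ) in the 4 groups; each point is 1 array and the line is the mean of 2. KRT8 and KRT19 lie higher relative to KRT18 on all 4 ZR75-1 arrays, and KRT7 lies lower.

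Keratins outside the 8 were mostly near the floor. Of 19 further probe sets with 1 keratin symbol, KRT10 alone was above the floor on all arrays, 10 were above it on 1 to 7 arrays and 8 on none. The highest signal outside KRT10 was 33.8. In the list of 27 other keratin genes, 15 had a probe set, 6 were tested and 0 were called in any contrast. Over all probe sets tested, 49.2% were called between the lines and 0.624% to 1.52% in the plasmid contrasts. KRT10, a type I keratin of differentiated epidermis, gave 226.9 and 275.9 in ZR75-1 with HSD17B14 and 224.1 and 361.6 with vector, against 300.8 and 295 in SKBR3-labelled cells with HSD17B14 and 344.1 and 410.9 with vector. These ranges overlap, and the log2 difference was -0.33 ± 0.15 (SE, limma adjusted p = 0.0953).

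The other intermediate filament proteins were set beside the keratins. Of 15 genes listed, 12 had a probe set and 7 were tested, of which 0 were called higher and 1 lower in ZR75-1. Over all probe sets tested, 23% were called higher and 26.1% lower. Their median log2 difference was 0.15, against -0.04 over all probe sets tested. The 1 called was VIM, vimentin, the filament protein of mesenchymal cells. It gave 25.7 and 0.4 in ZR75-1 with HSD17B14 and 6.9 and 23.2 with vector, against 3675.6 and 3646.2 in SKBR3-labelled cells with HSD17B14 and 5325.8 and 4637.6 with vector. The line difference in log2 signal was -9.06 ± 0.75 (SE, limma adjusted p = 1.32e-06), and -7.68 with values under the common floor raised to it.

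Genes of the junctions that anchor keratins came next. Of 15 desmosome genes, all with a probe set, 10 were tested, and 3 were higher, 4 lower and 3 not called in ZR75-1 (median log2 difference 0.02), where 23% of all probe sets tested were higher and 26.1% lower (median -0.04). PPL, periplakin, and JUP, plakoglobin, which link desmosomes to filaments, were higher by 2.98 ± 0.25 and 2.28 ± 0.20 on the log2 scale. DSP, desmoplakin, which binds keratin filaments directly, was lower in ZR75-1 (-0.83 ± 0.15), as was the desmosomal cadherin DSG2 (-0.78 ± 0.16). PKP2, also among the 4 lower, passed the filter through its SKBR3-labelled arrays, so its call is given as a description. DSG3, DSC1, DSC2, DSC3 and PKP1 were at or under the floor on all ZR75-1 arrays, and so they were, with DSG1, on all SKBR3-labelled arrays.

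Of 9 hemidesmosome genes, 6 had a probe set and were tested, and 0 were higher, 4 lower and 2 not called in ZR75-1 (median log2 difference -2.04), beside the 26.1% of all probe sets tested that were lower. LAMB3, a laminin chain of the basement membrane, gave 25.2 to 41.2 on ZR75-1 arrays against 287.9 to 351.8 (log2 difference -3.30 ± 0.15, SE). ITGA6, the integrin that joins laminin to the hemidesmosome, was called lower, with 53.8 and 18 in ZR75-1 with HSD17B14 and 33.4 and 1 with vector, against 170.3 and 209.4 in SKBR3-labelled cells with HSD17B14 and 174.4 and 180.2 with vector. Its 4 ZR75-1 arrays spread widely, 1 of them under the floor, so no single fold is given. CD151, its tetraspanin partner, differed by -0.78 ± 0.23. DST, a plakin that ties keratin to the hemidesmosome, lay under the floor on all ZR75-1 arrays and was at least 1.35-fold lower there. DST passed the filter through its SKBR3-labelled arrays, so its call among the 4 is given as a description.

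Markers of cell types were set beside the keratins, and the luminal list went the way of KRT8, KRT18 and KRT19 but not of KRT7. All 19 luminal epithelial genes listed were called higher in ZR75-1 (median log2 difference 2.62), against 23% of all probe sets tested, with summed signals of 13167.5 to 13604 against 2367 to 2878.1. They included the adhesion protein CDH1 (4.82 ± 0.16), the mucin MUC1 (5.43 ± 0.19), the trefoil factor TFF3 (5.20 ± 0.17) and AGR2 (3.002 ± 0.134), a disulfide isomerase of secretory cells, as log2 differences with SE. On SKBR3-labelled arrays MUC1 (9.5 to 26.7) and TFF3 (14.7 to 20.8) lay near the floor, so the size of their differences is uncertain. With values raised to the common floor, the MUC1 difference was 5.16. The list also holds ESR1, which the labels' receptor status separates. ST14, a membrane serine protease, lay under the floor on all SKBR3-labelled arrays and was at least 6.54-fold higher in ZR75-1. ST14 and CLDN3 passed the filter through their ZR75-1 arrays, so their calls among the 19 are given as a description.

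Of 15 basal and myoepithelial markers, 14 had a probe set and 12 were tested, of which 2 were higher, 6 lower and 4 not called in ZR75-1 (median log2 difference -0.39), beside 23% higher and 26.1% lower over all probe sets tested. Among them CAV1, CAV2, MYLK, TAGLN, CDH3 and OXTR passed the filter through the line where they were higher. The counts of this list are thus given as a description. The caveolae proteins CAV1 and CAV2 were under the floor on all ZR75-1 arrays and at least 31.9-fold and 8.68-fold higher in SKBR3-labelled cells. ANXA1, annexin A1, was lower in ZR75-1 (-2.88 ± 0.10), whereas CDH3, P-cadherin, was at least 3-fold higher there. Summed signals of the list were 1386.1 to 1917.5 in ZR75-1 and 4151.7 to 4596.3 in SKBR3-labelled cells, while its keratin counterparts KRT5 and KRT14 did not reach the floor in SKBR3-labelled cells. ANXA1 (1605 to 1837.4) and SFN (1553.1 to 1979.7) made up most of the SKBR3-labelled sums. CDH3, CNN1, MME, OXTR and CRYAB were at or under the floor on all SKBR3-labelled arrays.

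Of 7 mesenchymal markers, 5 had a probe set and 3 were tested. VIM and the repressor SNAI2 were called lower in ZR75-1, as were 26.1% of all probe sets tested. TWIST1 went the other way, but it passed the filter through its ZR75-1 arrays, so its values are given as a description. It was under the floor on all SKBR3-labelled arrays and at least 1.16-fold higher in ZR75-1. SNAI2 gave 17.3 and 6 in ZR75-1 with HSD17B14 and 15.3 and 19.5 with vector, 3 of these 4 values under the floor, against 130.8 and 125.1 in SKBR3-labelled cells with HSD17B14 and 65.5 and 119.8 with vector. Summed signals of the list were 21.7 to 81.4 in ZR75-1 and 3776.4 to 5417 in SKBR3-labelled cells. VIM alone gave 3646.2 to 5325.8 in SKBR3-labelled cells, so these sums mostly repeat its difference. SPARC was under the floor throughout. Of the fibroblast, leukocyte and endothelial markers, 6 were tested. COL1A1 was under the floor on all SKBR3-labelled arrays and at least 1.98-fold higher in ZR75-1. LAPTM5 gave 1.2 to 22.6 on ZR75-1 arrays and 67.2 to 97.3 on SKBR3-labelled arrays. Each passed the filter through the line where it was higher, so these values are given as a description. PTPRC, PDGFRB, LUM, CDH5, VWF and TEK were under the floor on all 8 arrays. The part of other cell types in the keratin differences was not tested. In bulk RNA, fewer keratin-expressing cells and less keratin RNA per cell cannot be told apart.

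**Figure D3:**
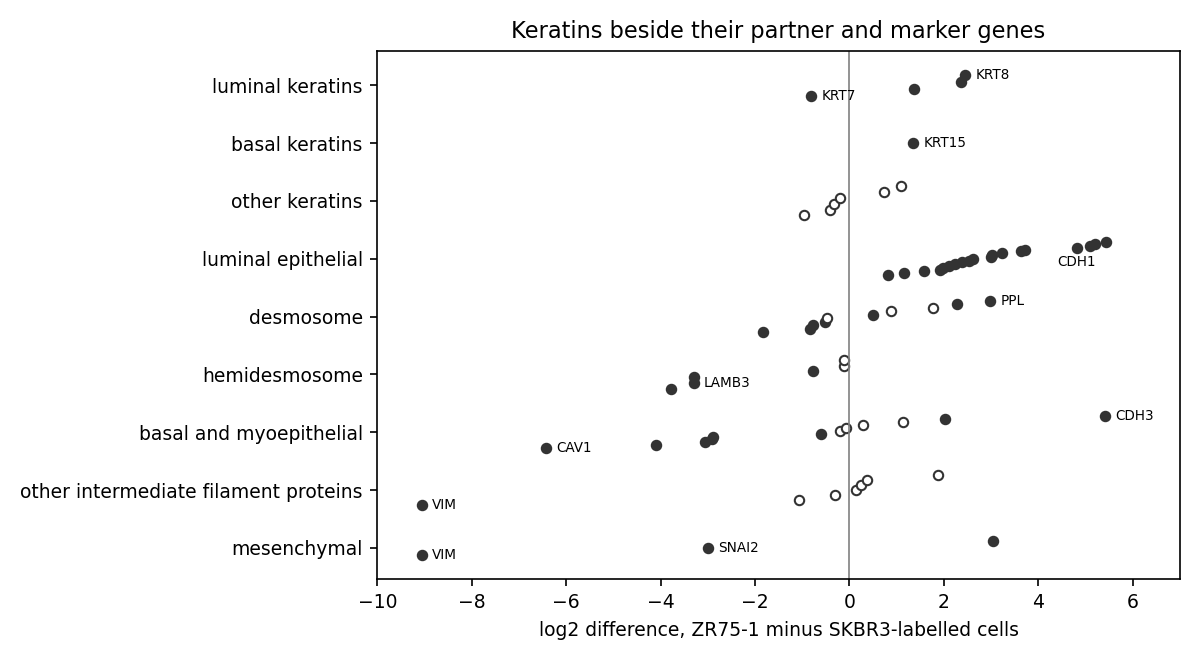
Fitted log2 difference, ZR75-1 minus SKBR3-labelled cells (horizontal axis), of each tested gene of the keratin, partner and marker lists (rows); filled points were called, open points were not, and VIM stands in 2 lists. The luminal epithelial genes all lie on the side of KRT8, KRT18 and KRT19, and the hemidesmosome genes lie on the side of KRT7. Some filled points, such as CDH3, CAV1, ST14, DST and TWIST1, passed the filter through the line where they are higher.

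The second question was what HSD17B14 did to the keratins within each line. In ZR75-1, 0 of the 5 tested keratins were called (limma, adjusted p under 0.05), on a background of 1.52% of probe sets, and 1 had an unadjusted p under 0.05. That was KRT7, whose signals of 108.7 and 152.3 with HSD17B14 lay just above 72.9 and 108.2 with vector, the closest pair differing by less than 1 unit. Its log2 difference was 0.53 ± 0.23 (SE, 95% interval 0.03 to 1.04, n = 2 a group, limma adjusted p = 0.251). The other luminal keratins had lower signals on both HSD17B14 arrays. Their log2 differences were -0.10 for KRT8 (95% interval -0.40 to 0.20), -0.28 for KRT18 (-0.73 to 0.16) and -0.20 for KRT19 (-0.53 to 0.13). With 2 arrays a group, 47% of all tested probe sets had no overlap in ZR75-1.

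KRT15 differed by -0.36 in ZR75-1 (95% interval -1.85 to 1.14). KRT14 was untested, and its values of 18.1 and 7.9 with HSD17B14 stood apart from 1.2 and 1.0 with vector. Without the filter its log2 difference was 3.45 (limma adjusted p = 0.143), with 3 of these 4 values under the floor. The median log2 signal of the ZR75-1 arrays was itself lower with HSD17B14 (4.53 and 4.396, against 4.68 and 4.66 with vector), and centring each array on its median adds 0.20 to each log2 difference in ZR75-1 and 0.07 in SKBR3-labelled cells. So centred, KRT8 in ZR75-1 turned to 0.11 and KRT19 to 0.0036.

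In SKBR3-labelled cells 0 of 5 keratins were called on a background of 0.992%, and 0 had an unadjusted p under 0.05. KRT8 signals of 499.6 and 454.4 with HSD17B14 were above 360.3 and 420.2 with vector (log2 difference 0.29 ± 0.14, SE, 95% interval -0.01 to 0.59, limma adjusted p = 0.582). KRT18 signals of 2786.8 and 2896.2 with HSD17B14 were below 4602.3 and 3154.2 with vector (log2 difference -0.42 ± 0.20, SE, 95% interval -0.87 to 0.02, limma adjusted p = 0.584). KRT7 (0.01, interval -0.50 to 0.52), KRT19 (0.03, interval -0.29 to 0.36) and KRT15 (0.17, interval -1.32 to 1.66) overlapped between plasmids. Here 40.1% of all tested probe sets had no overlap.

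Averaged over both lines, 0 of 5 keratins were called on a background of 1.5%. KRT18 had an unadjusted p of 0.0302 and a log2 difference of -0.35 ± 0.14 (SE, 95% interval -0.67 to -0.04, limma adjusted p = 0.278, n = 4 an arm). The other 4 lay between -0.09 and 0.27. The KRT8 to KRT18 ratio was higher on both HSD17B14 arrays than on both vector arrays in each line (log2 difference 0.45), and so was the KRT7 to KRT18 ratio (0.63). For both the exact two-sided permutation p within lines was 0.0556, the smallest that 36 arrangements can give, and 0.0833 after adjustment over the 3 ratios. The KRT8 ratio differed by 0.26 without the first SKBR3-labelled vector array, the one with the high KRT18 signal, which also had the highest 3′ to 5′ ratio of the actin control probe sets (3.6, against 2.02 to 3.09 on the other 7). The KRT19 to KRT18 ratio differed by 0.27 (exact permutation p = 0.167).

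The difference of the plasmid's effects, ZR75-1 minus SKBR3-labelled, was called for 0 of 5 keratins on a background of 0.624%. It was -0.39 ± 0.20 for KRT8 (SE, 95% interval -0.82 to 0.04, limma adjusted p = 0.43), 0.53 for KRT7 (interval -0.19 to 1.24), -0.23 for KRT19 (interval -0.69 to 0.23), 0.14 for KRT18 (interval -0.49 to 0.77) and -0.52 for KRT15 (interval -2.63 to 1.58). For KRT8, KRT18 and KRT19 the intervals of both within-line effects lie inside 1 log2 unit either way, whereas that of KRT7 in ZR75-1 reaches 1.04 and those of KRT15 run past it on both sides.

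**Figure D4:**
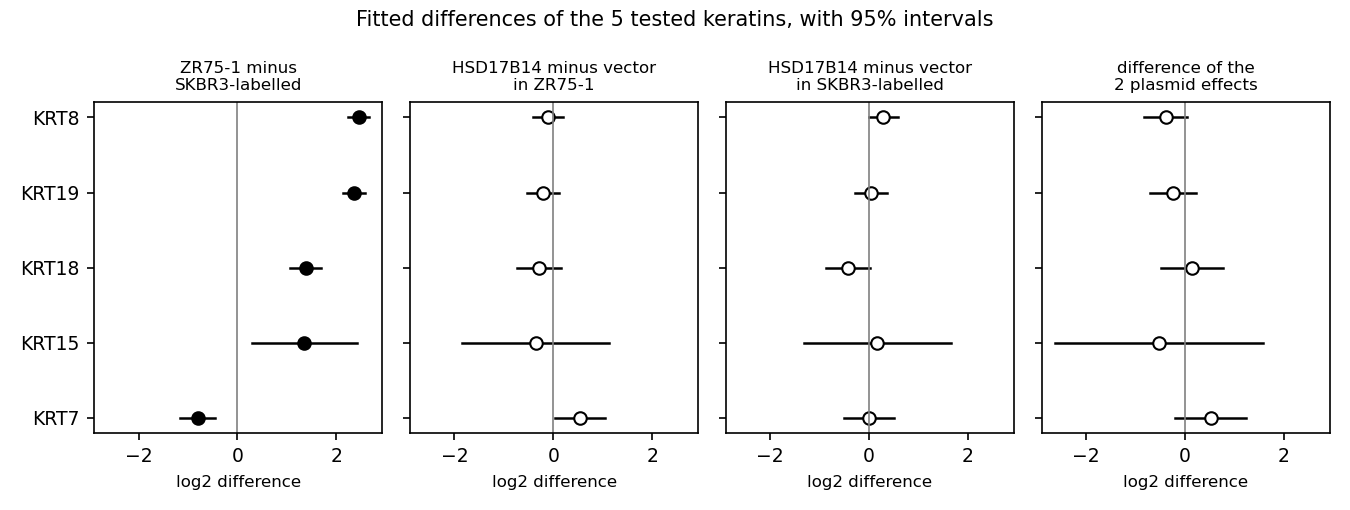
Fitted log2 differences of the 5 tested keratins (rows) in 4 contrasts (panels) with 95% intervals; filled points were called and open points were not. All 4 luminal keratins and KRT15 are filled in the line contrast, and 0 keratins are filled in the plasmid contrasts. The KRT15 point rests on values under the floor and is not counted as a call in the text.

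The partner genes were also compared between plasmids. Over all probe sets tested, 1.52% were called in ZR75-1, 0.992% in SKBR3-labelled cells and 1.5% on average. Among the 7 filament, 10 desmosome and 6 hemidesmosome genes tested, LMNA, the nuclear lamin A/C, was the gene called. Its signals were 381.9 and 484.8 in ZR75-1 with HSD17B14, against 806.8 and 916.5 with vector, a log2 difference of -0.999 ± 0.159 (SE, limma adjusted p = 0.0177). In SKBR3-labelled cells LMNA gave 535.1 and 480.3 with HSD17B14, against 563.1 and 488.8 with vector (-0.05 ± 0.16). Averaged over both lines LMNA was also called (-0.52 ± 0.11, SE, limma adjusted p = 0.0461). That averaged call was lost when arrays were centred on their medians (limma adjusted p = 0.300). The ZR75-1 call was lost when arrays were centred on their medians (adjusted p = 0.113), without the first ZR75-1 HSD17B14 array (0.102) and without the second ZR75-1 vector array (0.0577). It was also lost with values raised to the common floor (0.0511), with a prior that does not depend on the mean (0.191), with arrays blocked by their level of spiked-in control RNA (0.0531) and with the actin ratio as a covariate (0.448), and the log2 difference ran from -1.17 to -0.79 over all alternatives. DSP differed by 0.67 ± 0.22 in ZR75-1 and 0.62 ± 0.22 in SKBR3-labelled cells, with signals of 208.6 and 276.4 against 175.1 and 130.2 and of 475.2 and 372.6 against 311.9 and 239.9. Its mean over both lines was 0.65 ± 0.15 (SE, limma adjusted p = 0.0702), which did not pass.

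Of the 19 luminal epithelial markers tested, 1 was called in ZR75-1, 0 in SKBR3-labelled cells, 1 on average and 1 for the difference of effects. Over all probe sets tested these shares were 1.52%, 0.992%, 1.5% and 0.624%. MUC1 fell in ZR75-1 with HSD17B14, to 567.1 and 413.3 against 1348.3 and 1034.3 with vector (log2 difference -1.29 ± 0.26, SE, limma adjusted p = 0.0379). In SKBR3-labelled cells MUC1 gave 26.7 and 24.4 with HSD17B14, against 9.5 and 15.1 with vector, both vector values being under the floor (1.09 ± 0.26, SE, limma adjusted p = 0.107). The difference of the plasmid's effects on MUC1 was called (-2.38 ± 0.37, SE, limma adjusted p = 0.0176) and was lost with values raised to the floor (-1.82, limma adjusted p = 0.0811), as under quantile normalization, median centring, the other prior and the actin covariate (0.0744 to 0.996) and without any 1 of 4 arrays (0.0605 to 0.0959). CD24, a surface glycoprotein, gave 457.3 and 598.3 in ZR75-1 with HSD17B14 against 334.9 and 329.2 with vector, and 83.3 and 87 in SKBR3-labelled cells with HSD17B14 against 48 and 61 with vector. Its mean log2 difference over both lines was 0.65 ± 0.14 (SE, limma adjusted p = 0.0374). Both calls were lost under quantile normalization, median centring, no filter, values raised to the common floor, a prior that does not depend on the mean, a block for the level of spiked-in control RNA and the actin ratio as a covariate, with adjusted p of 0.0524 to 0.587 for MUC1 and 0.0501 to 0.224 for CD24. The MUC1 call was also lost without any 1 of the 4 ZR75-1 arrays or either SKBR3-labelled HSD17B14 array (adjusted p 0.0683 to 0.163), and the CD24 call without any 1 array other than the first ZR75-1 HSD17B14 array and the second SKBR3-labelled vector array (0.084 to 0.156).

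Genes whose pattern over the 8 arrays was most like a keratin's were ranked by the root mean square difference of their log2 signals, each centred on its own mean, among 5532 genes. KRT19 and KRT8 shared the same closest pair: DCXR, a dicarbonyl and xylulose reductase, and MSRB1, a methionine sulfoxide reductase. The difference was 0.0669 from KRT19 and 0.177 from KRT8 for DCXR, and 0.102 from KRT19 and 0.106 from KRT8 for MSRB1. DCXR gave 658.5 to 895.9 in ZR75-1 and 144.1 to 157.2 in SKBR3-labelled cells. KRT18 was closest to EIF4ENIF1 (0.114), a transporter of the cap-binding protein eIF4E, and ABCB6 (0.135), a membrane transporter. KRT7 was closest to TUBA1A (0.125), an alpha-tubulin, and TXN (0.129), thioredoxin, whose signals were 643.2 to 1165.5 in ZR75-1 and 1516.4 to 1966.5 in SKBR3-labelled cells. For KRT15 the closest, TRAF4, was farther off at 0.292. These are descriptions of 8 arrays that share 2 lines.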

How the data were processed

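Total RNA of 8 cell culture samples was labelled with biotin and measured on Affymetrix HG-Focus arrays. The authors deposited linear signal intensities. The submitters' processing notes name MAS5, with no version. Such a signal is a robust average over a probe set's probes, so low values are noisy. The table has 8793 rows, of which 47 are controls. Symbols came from the platform annotation (7840 probe sets with 1 symbol, 388 with several, 518 with none here), and 7838 matched the RefSeq gene table by gene ID, with 0 symbols changed. Depth does not apply to arrays, and their number limits the precision.

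Before taking log2, signals below 1 (2.41% to 7.13% of an array) were set to 1. A probe set was tested if above its array's own 40th percentile (12.1 to 17.6) on at least 2 arrays, which left 6251. KRT5 passed that percentile on 0 arrays, KRT14 on 1 and KRT15 on 5. limma 3.58.1 in R 4.3.3 fitted 4 group means over all 8 arrays, with a prior that depends on the mean and Benjamini-Hochberg adjustment over all 6251, and was tested on simulated data. Where all arrays of a line lay at or under the common floor of 17.6, the fold is a bound against that floor. Errors after log2 differences are standard errors. The ratios to KRT18 and their permutation tests were added after the values were seen. In lists, a gene is shown by whichever of its probe sets had the greatest mean log2 signal. Every keratin of the 8 was named, and per list and contrast up to 4 tested genes with the smallest p for the line difference and up to 2 for the plasmid, of which those described are given. ESR1 and ST14 were named after their values were seen. The members, lists and tests were chosen with earlier results of these data known. Promoter windows came from RefSeq, which held KRT8 and KRT5 of the 8. Python 3.11.15 with matplotlib 3.10.9 drew the figures.

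The labels give the arrays of every group the numbers 1 and 2. Deviations of same-numbered arrays from their group means correlated at -0.044, -0.035, -0.015 and -0.043 over probe sets, so the numbers were not used as pairs.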

Additional observations from a re-analysis of the deposited data

Results flagged for a closer look

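The KRT8 log2 difference of plasmid effects, ZR75-1 minus SKBR3-labelled, was -0.39. It was singled out because both HSD17B14 arrays lay below both vector arrays in ZR75-1 (2306.5 and 2252.4, against 2351.9 and 2529.6) and above both vector arrays in SKBR3-labelled cells (499.6 and 454.4, against 360.3 and 420.2). The interaction was tested in limma and did not pass (adjusted p = 0.43). Groups of 2 are too small for a search for outlying arrays.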

How the results depend on the processing

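Calls for KRT8, KRT18 and KRT19 between the lines held under every alternative tried, with log2 differences of 2.26 to 2.65, 1.24 to 1.61 and 2.24 to 2.48. Of the tested keratins, KRT15 included, 5 were called between the lines as reported, 3 with the HSD17B14 arrays alone (KRT7 and KRT15 were lost) and 4 or 5 when 1 array was left out. The count was 4 without the filter, with a 60th percentile filter (which drops KRT15), with values raised to the common floor, with the actin ratio as a covariate and with the vector arrays alone. In these 4 settings that kept it, KRT15 was the keratin lost, at adjusted p of 0.0645, 0.125, 0.142 and 0.148, against 0.168 with the HSD17B14 arrays alone. The number called for the plasmid was 0 in each contrast under every alternative. With the replicate block (array number), all 4 luminal keratins were called between the lines and 0 keratins in each plasmid contrast. The block changed the number of calls over all probe sets by under 1.5 times in every contrast (3038 between the lines, 104 in ZR75-1, 67 in SKBR3-labelled cells, 114 on average and 42 for the difference). Signs of uncalled effects turned as follows. Median centring gave 0.0036 for KRT19 and 0.11 for KRT8 in ZR75-1, and 0.055 for KRT19 and 0.046 for KRT15 averaged over the lines. Quantile normalization gave -0.031 for KRT7 in SKBR3-labelled cells, and -0.013 for KRT8 and 0.062 for KRT15 averaged over the lines. The actin ratio as a covariate gave 0.092 for KRT8 in ZR75-1, -0.13 for KRT7 in SKBR3-labelled cells and -0.39 for the KRT18 difference of effects. Leaving out 1 array, the effect on KRT15 ran from -0.92 to 0.21 in ZR75-1, -0.39 to 0.73 in SKBR3-labelled cells, -0.38 to 0.19 on average and -1.09 to 0.042 for the difference. The KRT18 difference of effects ran from -0.13 to 0.41, and in SKBR3-labelled cells KRT19 ran from -0.11 to 0.17 and KRT7 from -0.048 to 0.066. The cause of these turns was not tested. Over all probe sets, the 3073 calls between the lines ranged with the setting from 1750 to 3274, the 95 in ZR75-1 from 1 to 262, the 62 in SKBR3-labelled cells from 9 to 125, the 94 on average from 12 to 221 and the 39 for the difference from 0 to 67. Signals near the floor limit what can be said of the basal keratins.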
